A study of Drosophila melanogaster with 2 samples.

Results

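Semaphorins are guidance proteins that share a sema domain and steer growing axons, and plexins are their receptors, which signal through a GTPase-activating domain inside the cell. In the fly, the transmembrane semaphorins Sema1a and Sema1b bind PlexA, and the secreted semaphorins Sema2a and Sema2b bind PlexB. Sema1a also acts as a receptor in its own right, and PlexB with its ligands positions the axons of sensory neurons, those of the chordotonal (stretch) organs among them, in the embryonic nerve cord. Atonal, encoded by ato, is the proneural basic helix-loop-helix factor that specifies most chordotonal organs, and with its partner Daughterless it binds E-boxes, DNA words of the form CANNTG.

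The 6 genes Sema1a, Sema1b, Sema2a, Sema2b, PlexA and PlexB, of 13968 protein-coding genes on the main chromosome arms, were examined for binding of Atonal. A peak was assigned to one of them when its summit lay inside the gene or when the nearest start of a protein-coding gene was its own. By this rule the 6 genes held 8 of the 3009 peaks in the conservative list, which requires both replicates to give the peak, and 289 of the 161563 peaks in the longer ranked list from which it was drawn. The genes were selected on these peaks, Sema1a being among the genes with most of them, so the counts and signals below are descriptions and carry no test.

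Chromatin came from whole Drosophila melanogaster embryos aged 0 to 18 h of a strain in which ato is fused to enhanced GFP, and was precipitated with an antibody against GFP in 2 biological replicates of this 1 group. The labels call the flies transgenic, name ato as the target of the insertion without giving its site, and list no treatment, and a control was not analysed here. The sources used here do not say whether an unfused copy of ato remained. A whole embryo mixes the few cells that make Atonal with all others, so a peak is not tied to a cell type. Each peak carries the authors' signal, whose scale the sources used here do not state, and a percentile below is the share of peaks of the same list that it equals or exceeds in signal. Read depth is unknown, since the lists carry no read counts. The list of replicate 1 alone had 2501 peaks past its threshold and that of replicate 2 had 1737.

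Of the 6 genes, 4 had at least 1 conservative peak, where 19.9% of all protein-coding genes did. Sema1a had 5, and PlexA, Sema2a and Sema2b had 1 each, while Sema1b and PlexB had none. These genes are long, and among protein-coding genes of 0.8 to 1.25 times the length of each member, the share with a conservative peak was 33.4% to 42.6%. Of all protein-coding genes on the main arms, 3 had more conservative peaks than Sema1a. The sequences at its tRNA genes, at its second start and at PlexA are shown because the peaks differ in what lies beneath or near the summit. The stretches printed for the second start and for the intron do not contain the summit. The intronic summit lay 93 bp before the printed tRNA gene, and no GGTTCNA stood within 50 bp of that summit. All are on the plus strand of the RefSeq dm6 assembly. Capitals mark ATCGAT at the PlexA summit, the bases of an aspartate tRNA gene at the 2 Sema1a summits upstream of the gene, the E-box near the summit at the second Sema1a start, and GGTTCNA, which matches the core of the internal promoter element (B box) of tRNA genes, in the whole tRNA gene inside the Sema1a intron.
PlexA start, chr4:1027133-1027233: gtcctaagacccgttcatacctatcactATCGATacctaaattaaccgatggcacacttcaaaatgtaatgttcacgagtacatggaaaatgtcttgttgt
Sema1a upstream, tRNA:Asp-GTC-1-4, chr2L:8541571-8541671: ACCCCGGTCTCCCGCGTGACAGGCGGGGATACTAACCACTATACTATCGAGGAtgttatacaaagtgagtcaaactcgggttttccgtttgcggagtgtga
Sema1a upstream, tRNA:Asp-GTC-1-5, chr2L:8541781-8541881: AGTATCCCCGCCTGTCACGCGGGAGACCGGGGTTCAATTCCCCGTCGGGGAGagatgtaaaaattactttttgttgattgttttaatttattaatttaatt
Sema1a second start, chr2L:8543323-8543348: gagaaagtgcCATTTGagactgaact
Sema1a intron, tRNA:Asp-GTC-1-6, chr2L:8620028-8620099: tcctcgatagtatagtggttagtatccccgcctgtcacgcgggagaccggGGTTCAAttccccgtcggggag

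The capitals in the 2 upstream windows are parts of 1 tRNA sequence read on opposite strands, since tRNA:Asp-GTC-1-4 lies on the minus strand and tRNA:Asp-GTC-1-5 on the plus strand. In both, the summit fell within the tRNA gene, 2 bp from the start of copy 1-4 and 70 bp from the start of copy 1-5. Copy 1-6, printed whole, is identical to copy 1-4 over its 72 bases.

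Sema1a, the transmembrane semaphorin that serves both as ligand and as receptor, spans 129.9 kb at chr2L:8542147-8672041, and 0.329% of protein-coding genes are longer. Its strongest peak, chr2L:8541531-8541678, had a signal of 165.8 and ranked 476 in the conservative list. The summit was 526 bp upstream of the first Sema1a start. In replicate 1 the overlapping peak had a signal of 88.5 (percentile 99.6), and in replicate 2 it had 83.4 (percentile 99.7). Both replicates thus placed this site among their strongest peaks, and it was the single member peak above the median signal of the conservative list.

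The neighbouring peak, chr2L:8541663-8541998, had a signal of 47.3 and ranked 2866, with its summit 316 bp upstream of the same start. The 2 intervals overlapped by 16 bp and their summits stood 210 bp apart. Neither replicate's thresholded list separated them, and each gave 1 peak across this stretch. Its summit lay 142 bp below the weaker peak's summit in replicate 1 and 222 bp below it in replicate 2. The plot of thresholded peaks around the Sema1a starts shows that the pooled list also carries both intervals, while each replicate has 1.

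**Figure D1:**
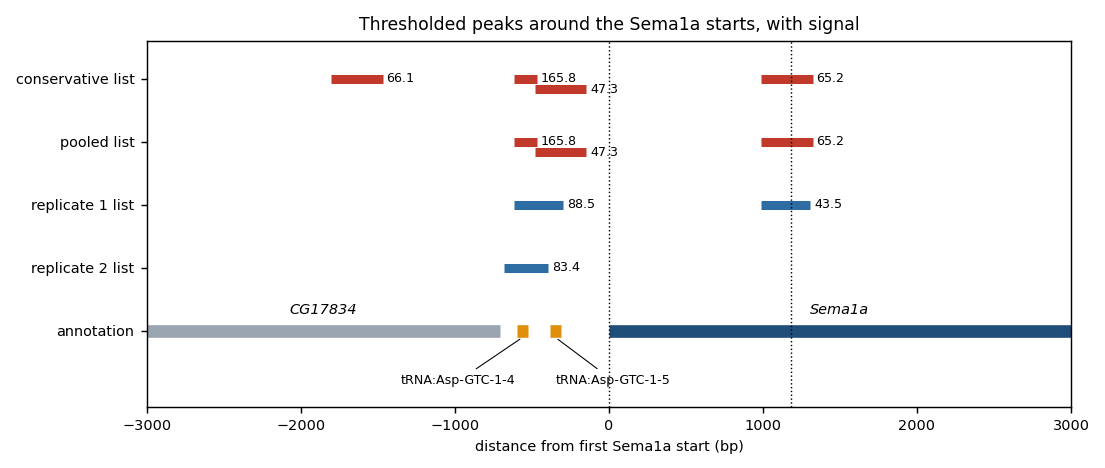
Thresholded peaks within 3 kb of the first Sema1a start, with distance from that start in bp on the horizontal axis, a row for each list and the authors' signal beside each bar. Dotted lines mark the 2 Sema1a starts, orange boxes the tRNA genes 1-4 and 1-5, and a reader should see the peaks of 165.8 and 47.3 over these tRNA genes and the peak of 65.2 over the second start.

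At the second Sema1a start (position 8543330), from which 5 of the 7 annotated transcripts begin, the peak chr2L:8543135-8543470 had a signal of 65.2. Its summit lay 27 bp upstream of that start, in the 5′ UTR of the longer transcripts. The signal was 43.5 in replicate 1 (percentile 98.3) and 28.0 in replicate 2 (percentile 96.1), and the site passed the threshold of replicate 1 alone. The E-box CATTTG began 30 bp beyond the summit. This was the Sema1a peak closest to a start of the gene itself.

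The remaining upstream peak, chr2L:8540342-8540677, had a signal of 66.1 and its summit 1637 bp before the first Sema1a start, in a coding exon of the neighbouring gene CG17834. It reached 31.5 in replicate 1 (percentile 96.8) and 28.2 in replicate 2 (percentile 96.2). It was in the thresholded list of neither replicate and was the member peak absent from the pooled list. Its assignment to Sema1a rested on the nearest start, since the summit lay inside another gene.

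The fifth Sema1a peak, chr2L:8619767-8620102, had a signal of 67.2 and lay in an intron, 76605 bp from the nearest Sema1a start. The nearest start of any protein-coding gene was that of Glt, 52763 bp away. The summit stood 93 bp before tRNA:Asp-GTC-1-6, which is read in the same direction as Sema1a. Replicate 1 gave 42.8 (percentile 98.3) with its summit 102 bp further on, inside the tRNA gene, and replicate 2 gave 31.3 (percentile 97.4). Of the 267 ranked member peaks more than 500 bp from any annotated start, 1 passed, the upstream peak in CG17834. The intronic peak counted as near a start through the tRNA gene.

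PlexA, the receptor of the transmembrane semaphorins, had 1 conservative peak at its only start. The peak, chr4:1027015-1027350, had a signal of 86.8 and ranked 1556, the second highest among the members, with its summit 82 bp upstream of the start. Replicate 1 gave 55.5 (percentile 98.9) and replicate 2 gave 28.5 (percentile 96.3), and the threshold was passed in replicate 1 alone. No E-box stood within 50 bp of the summit. The word ATCGAT, the core of the DNA replication-related element bound by the factor DREF, was found there. This was the only 1 of the 8 member summits with the word. It stood at 37.2% of all conservative summits and at 4.49% and 3.36% of windows of the same width 500 bp below and above them.

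Sema2a, a secreted ligand of PlexB, spans 33.3 kb on arm 2R and had 1 conservative peak at its second start, chr2R:16515967-16516302. The signal was 71.3 (rank 2110) and the summit lay 15 bp upstream of that start. Replicate 1 gave 44.4 (percentile 98.4) and passed, and replicate 2 gave 28.9 (percentile 96.5) and did not. The E-box CATCTG began 11 bp before the summit. At the first Sema2a start the strongest ranked peak had a signal of 13.3 (percentile 34.4), so the starts of this gene differed widely.

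Sema2b, the other secreted ligand, spans 45.2 kb on the same arm and had 1 conservative peak at its first start, chr2R:16386405-16386740. The signal was 76.0 (rank 1902) and the summit lay 49 bp downstream of the start, in the 5′ UTR. Replicate 1 gave 42.2 (percentile 98.2) and replicate 2 gave 38.6 (percentile 98.5), the closest percentiles outside the shared tRNA site. Neither replicate passed alone, with a −log10 of the global irreproducible discovery rate (IDR, the authors' measure of disagreement between ranked lists) of 0.09 in replicate 1 and 1.63 in replicate 2. No E-box stood within 50 bp of this summit, and the peak at the second start had a signal of 31.8 (percentile 85.5).

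Sema1b, the second transmembrane ligand of PlexA, spans 10.7 kb on arm 2R and had no conservative peak assigned to it. Its strongest ranked peak, chr2R:17676132-17676467 in a coding exon, had a signal of 49.0, with 18.4 in replicate 1 and 24.8 in replicate 2. A conservative peak did lie 349 bp upstream of its first start, at chr2R:17683680-17684015, with a signal of 59.7. It was assigned to HPS4, whose start was closer, with the summit in an intron 274 bp downstream of that start and outside Sema1b. The peak was in the thresholded list of neither replicate, with 31.8 in replicate 1 and 37.1 in replicate 2. With the summit outside Sema1b, the absence of a Sema1b peak rests on which of 2 neighbouring starts is nearer.

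PlexB, the receptor of the secreted semaphorins, spans 11.3 kb on chromosome 4 and had no conservative peak and no ranked summit within 500 bp of its only start. Its strongest ranked peak, chr4:42931-43266 in a coding exon, lay 679 bp downstream of the start with a signal of 56.7. Replicate 1 gave 35.2 (percentile 97.5), and no ranked peak of replicate 2 overlapped it. The −log10 of the global IDR was 0.68, against at least 2.0 in the conservative list, which corresponds to a rate of at most 0.01.

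**Figure D2:**
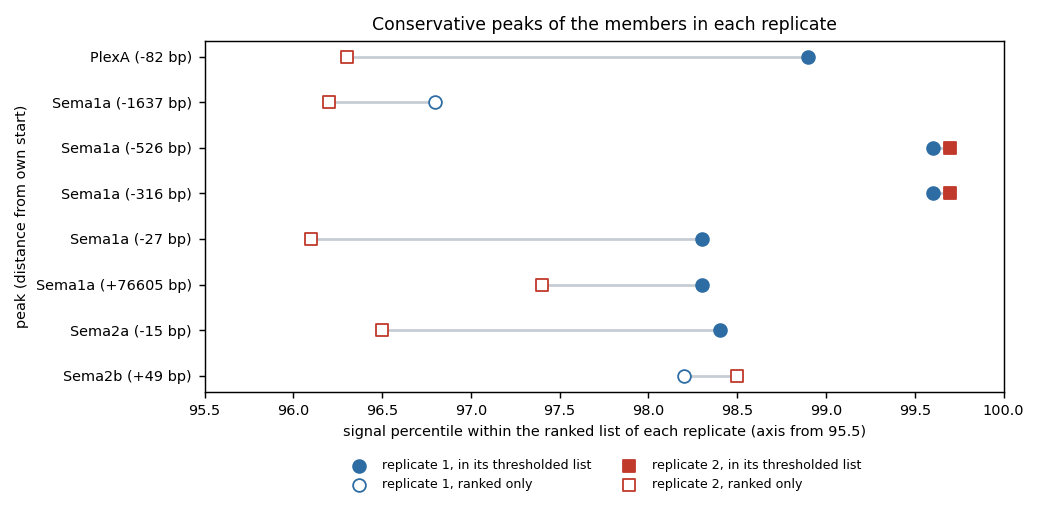
Signal percentile of the strongest overlapping peak in the ranked list of each replicate (horizontal axis, percent, starting at 95.5) for the 8 conservative member peaks, each named by its gene and the distance to its own start. Filled symbols passed the threshold of that replicate, and a reader should see that 6 peaks are filled in replicate 1 and 2 in replicate 2, those 2 being the adjoining peaks that share 1 replicate peak.

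For each of the 8 peaks, the strongest overlapping peak in the ranked list of each replicate had a percentile of at least 96.1. For the Sema1a peak of 47.3 that was the peak shared with its stronger neighbour, so no replicate value of its own is given. Few of the 8 passed in both replicates. Of the 8, 6 overlapped a thresholded peak of replicate 1 and 2 overlapped one of replicate 2, where 67.4% and 53.1% of all conservative peaks did. Since those 2 share the peak in each replicate, 1 place in the 6 genes was found by both replicates alone. By the list of replicate 1, in which 16.8% of protein-coding genes had a peak, 3 members were called with 5 peaks. By the list of replicate 2, in which 12.2% of genes had one, Sema1a was called with 1 peak. The pooled list, in which 21.4% of genes had a peak, gave 7 peaks at 4 members.

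Among the conservative peaks the members were mostly weak. Their median signal was 69.3 and their median percentile within that list was 27.1, and 7 of 8 lay below its median signal of 88.6. The weaker tRNA peak of Sema1a was closest to the threshold from inside, with a −log10 of the global IDR of 2.03. Just outside stood another intronic Sema1a peak, chr2L:8636224-8636559, with 1.94 and a signal of 52.5, above the 47.3 of the peak that passed. It held an E-box, CAATTG, 11 bp before its summit. At the other genes, the closest values outside were 1.46 at Sema1b, 385 bp downstream of its second start, and 1.44 at Sema2a. They were 0.55 at Sema2b, for an intronic peak with a signal of 36.9, and 0.39 at PlexA, for an intronic peak with a signal of 27.9.

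E-boxes were found within 50 bp of 2 of the 8 summits (25%), on either strand, against 38.7% of all conservative summits. Windows of the same width 500 bp below and above the conservative summits held one in 39.5% and 38.9%, and the members' own flanks in 6 of 16. Within 25 bp it was 1 of 8 against 21.1% of all conservative summits, and within 100 bp it was 4 of 8 against 62.0%. The share at the members' summits within 50 bp thus rested on 2 peaks, one at Sema1a and one at Sema2a. GGTTCNA stood within 50 bp of 1 of the 8 summits, that of the weaker Sema1a peak at a tRNA gene upstream. Of all conservative summits, 5.96% had it.

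The 6 genes have 12 annotated starts, of which 7 had a conservative summit within 500 bp, where 19.1% of all starts of protein-coding genes did. One of the 7 is the first Sema1b start, whose peak was assigned to HPS4, and Sema2a starts 2 and 3 share 1 peak. At the first Sema1a start, that summit lay within tRNA:Asp-GTC-1-5. A ranked summit stood within 500 bp of 11, the exception being that of PlexB. By peaks, 7 of 8 summits were within 500 bp of an annotated start of any kind, where 86.3% of all conservative summits were. Within 100 bp of a protein-coding start there were 4 of 8, where 66.4% of all conservative summits were. Of the 289 ranked member peaks, 8 passed (2.77%), where 1.88% of all ranked peaks on the main arms did. Near a start 7 of 22 passed, where 10.2% of all ranked peaks there did, and far from one 1 of 267 passed, where 0.307% did. Of the 7 near a start, 3 lay within 250 bp of a tRNA gene, where 46.4% of all ranked peaks passed.

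**Figure D3:**
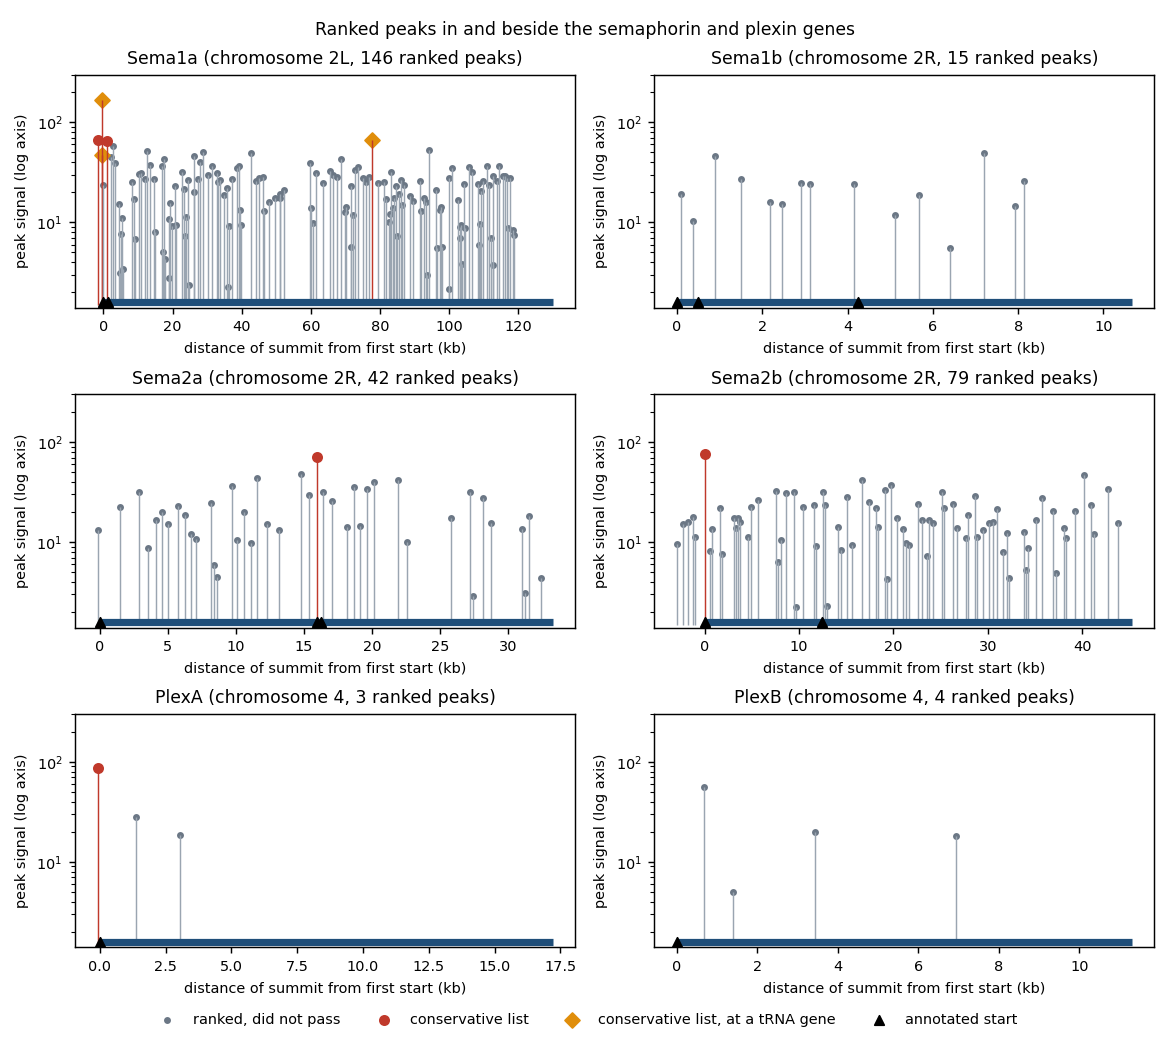
Signal of every ranked peak of each member (vertical, log axis) against the distance of its summit from the first start of the gene in kb. Blue bars are the genes, triangles the annotated starts, red points the conservative peaks away from tRNA genes and orange diamonds those within 250 bp of one, and a reader should see that all conservative peaks stand at starts, tRNA genes or just upstream of Sema1a.

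The summits of 3 of the 5 Sema1a peaks lay within 250 bp of a tRNA gene, where 3.89% of all conservative peaks on the main arms did. Across the main arms, 49.0% of the 290 tRNA genes had a conservative summit within 250 bp, and the 117 conservative peaks there had a median signal of 119.8. The 14 aspartate tRNA genes with anticodon GTC lie mostly on arm 2L (10 of 14), and 12 of the 14, copy 1-4 included, are identical over their 72 bases. The sequence beyond them differs, with 23.0% to 41.0% of bases matching those of copy 1-4 over 100 bp on either side. How reads from identical copies were placed is unknown, and its part in these peaks was not tested.

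Of these 14 genes, 8 had a conservative summit within 250 bp, where 49.0% of all tRNA genes did, and the identical copies were not alike. Copies 1-4 and 1-5 beside Sema1a had the highest signal, 165.8, as they share the same strongest peak. The summit within copy 1-5 itself had 47.3. Copies 1-2 and 1-3 likewise share 1 peak, of 79.6. Copy 1-6 in the Sema1a intron had 67.2. Beyond the 3′ end of Sema1a, copies 1-7 and 1-9 had 79.8 and 124.5, while the identical copy 1-8 had 17.9 and did not pass. The other tRNA gene inside Sema1a, tRNA:Phe-GAA-1-3 at chr2L:8570888-8570960, had 1 ranked peak with a signal of 50.5 (percentile 96.9) that did not pass.

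**Figure D4:**
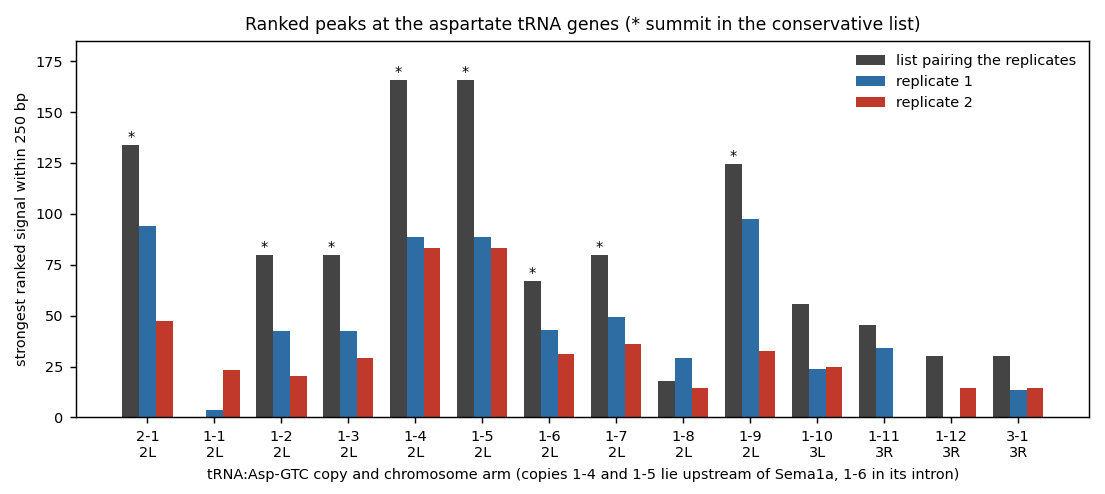
Strongest ranked signal within 250 bp of each of the 14 aspartate tRNA genes, in the list pairing the replicates and in each replicate, with the copy number and chromosome arm on the horizontal axis and the authors' signal on the vertical axis from 0. Stars mark a summit in the conservative list and a missing bar means that no ranked peak was there, and a reader should see 165.8 at the shared peak of copies 1-4 and 1-5 and 67.2 at copy 1-6.

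All ranked peaks of each gene, conservative ones included, were compared with those of protein-coding genes of 0.8 to 1.25 times its length. Sema1a held 146 ranked peaks with a median percentile of 66.5, and all 61 genes of like length had a lower median (median of these 44.1, highest 64.3 at Eip75B). That place depended on summits upstream of the gene, the strongest conservative peak among them. The 142 summits inside Sema1a had a median of 62.6, below the value of Eip75B, whose peaks were counted by the full rule. In the ranked list of replicate 1 the median for Sema1a was 55.9 and 96.7% of those genes were lower, and in that of replicate 2 it was 52.6 and 82.0% were lower. The level was not confined to the gene, since summits inside it had a median percentile of 62.6 and those within 100 kb on either side had 62.2. Eip75B, a nuclear receptor gene of 113.7 kb, was the 1 gene of like length with as many conservative peaks, and 4 of its 5 lay near a start and none at a tRNA gene.

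Within Sema1a the median percentile of ranked peaks was highest in the segment at the 5′ end, and the highest single signals did not follow it. From 5′ to 3′, the median percentiles in 4 equal segments of the gene were 69.7, 63.3, 57.5 and 59.0, over 42, 27, 40 and 33 peaks. The highest signals in these segments were 65.2, 48.8, 67.2 and 36.7. Between neighbouring ranked summits, the widest gap ran from 52.3 to 59.8 kb past the first start, and an annotated transposable element covers 52.4 to 59.4 kb. An even longer stretch, the last 11.2 kb of the gene, held no ranked summit.

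Sema1b, Sema2a and Sema2b had medians close to or below those of genes of like length. Their median percentiles were 55.2, 50.3 and 43.4, and 48.3%, 46.3% and 28.9% of genes of like length had a lower one. Sema2b had 16.4 ranked summits per 10 kb against a median of 12.9. Of genes of like length, 33.9%, 33.5% and 35.0% had a conservative peak, as did 42.6% of those like Sema1a, 35.1% of those like PlexA and 33.4% of those like PlexB.

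The plexin genes, both on chromosome 4, had few ranked summits. PlexA had 1.16 per 10 kb and PlexB 3.54, against medians of 13.7 and 13.9 for genes of like length. The 3 ranked peaks of PlexA, its conservative peak included, had a median percentile of 78.7, and 96.4% of genes of like length had a lower one. The 2 summits inside PlexA had a median percentile of 65.5. The 60 within 100 kb on either side had 74.0, so the level was not confined to the gene. For the 4 ranked peaks of PlexB the median percentile was 54.4, and 46.6% of genes of like length had a lower one. Chromosome 4 as a whole had 2.43 per 10 kb, against 11.3 to 12.6 on arms 2L, 2R, 3L, 3R and X. Transposable elements cover 19.6% of PlexA and 20.4% of PlexB, against 5.39% of Sema1a. Both ranked summits inside PlexA lay in such elements, and 0 of the 4 inside PlexB did. These counts are too small to set the 2 genes apart, and no share over all ranked summits is given beside them. Of the ranked peaks on chromosome 4, 11 of 327 passed (3.36%), and 10 of its 80 protein-coding genes had a conservative peak (12.5%). The part of mapping to repeats in these counts was not tested.

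**Figure D5:**
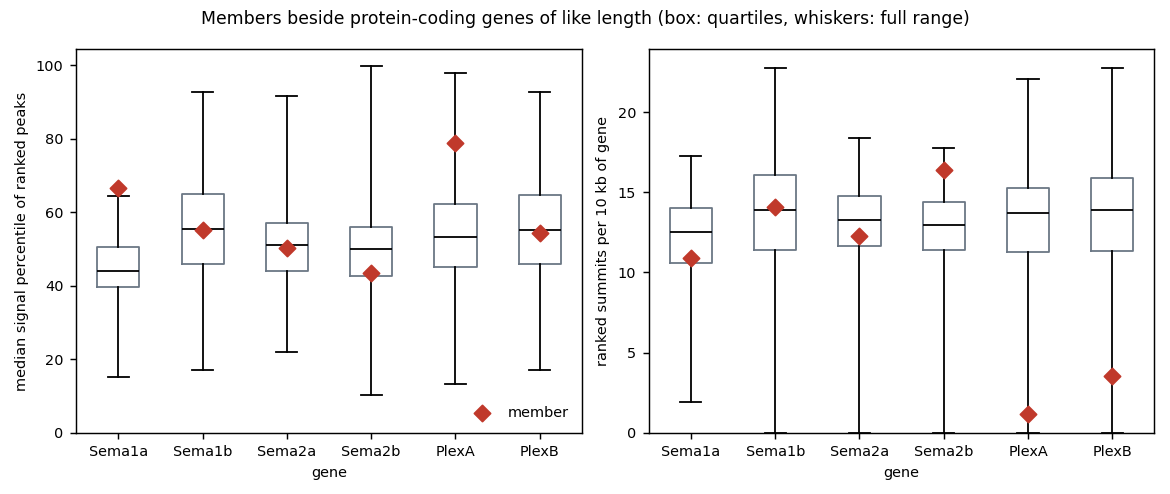
Median signal percentile of ranked peaks (left) and ranked summits per 10 kb (right) for each member (red diamonds) beside protein-coding genes of 0.8 to 1.25 times its length. Boxes give quartiles, with a line at the median, and whiskers the full range. A reader should see Sema1a at 66.5 above its whisker on the left, a value that includes summits upstream of the gene (62.6 inside it). On the right, PlexA at 1.16 and PlexB at 3.54 stand below their boxes.

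Proteins that act with semaphorins and plexins were also looked at. Of 16 such genes, chosen with earlier results of these data known, 8 (50%) had a conservative peak, 1 each, beside 19.9% of all genes. All 8 peaks were within 500 bp of a protein-coding start, and 86.3% of all conservative peaks were that near an annotated start of any kind. The median length of the 16 genes was 14.9 kb, against 2.16 kb for all protein-coding genes. Among genes of like length to PlexA (17.2 kb), 35.1% had a conservative peak. The part of length in this count was not tested. Of those named here, Pak, a kinase activated by Rac, had a signal of 221.2, which was not the highest of the 8. Abl, a tyrosine kinase, had 96.7, the off-track relative otk2 had 82.2, and the receptor guanylyl cyclase Gyc76C had 77.7 at a start shared with CG42637. Sema5c, the remaining semaphorin gene in the list and singled out after its values were seen, had none, and its highest ranked signal was 50.4.

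Of 26 ligands and receptors of other guidance systems, 13 (50%) had a conservative peak, beside 19.9% of all genes, with 16 peaks in all. Of the 13 genes, 10 had a peak within 500 bp of a start, and 86.3% of all conservative peaks were that near an annotated start of any kind. The strongest peaks were at the adhesion molecules Nrg (333.0) and Dscam1 (240.9, at 4530 bp from its nearest start). Next were those at the receptor phosphatase Ptp10D (158.4), the Netrin receptor fra (137.6) and the Slit receptors robo1 (127.1) and robo2 (110.9). Such genes are long, with a median of 39.0 kb against 2.16 kb for all protein-coding genes. Among genes of like length to Sema2a (33.3 kb) and Sema2b (45.2 kb), 33.5% and 35.0% had a conservative peak. The part of length in this count was not tested.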

How the data were processed

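The authors deposited 8 peak lists on dm6, a ranked and a thresholded list for each replicate, for the pooled data and for the list pairing the replicates (conservative). Each peak carries the authors' signal and, in the ranked lists, the deposited −log10 of the global IDR. The sources used here do not name the aligner, the peak caller, the signal scale or the control, and depth is unknown. Members and gene lists were chosen with earlier results of these data known.

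Summits were assigned with Ensembl release 115, whose coordinates are those of dm6, to every protein-coding gene they lay in and to the gene with the nearest start. A peak shared a replicate's peak at an overlap of 1 bp or more, and the strongest overlapping peak was used. Motifs were searched on both strands within 50 bp of summits. GGTTCNA and ATCGAT were chosen after the data were seen. The assignment was tested on simulated positions. Python 3.11.15, numpy 2.4.6, pandas 2.3.3, scipy 1.17.1 and matplotlib 3.10.9 were used.

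Named are all members with their conservative peaks, the ranked peak of each closest to the threshold from outside, the strongest ranked peak of members without a conservative one, the genes around these summits, up to 6 genes per list by signal, and genes most like Sema1a by number of peaks and length. Other genes and tRNA genes were named after their values were seen. Some genes that this rule names are not reported here.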

Additional observations from a re-analysis of the deposited data

How the results depend on the processing

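Each list holds both replicates or 1, so results rest on 2 samples, and the E-box and near-start shares are over 8 peaks or fewer. With each replicate left out in turn, the members' peaks numbered 1 to 5 (8 as reported), members with a peak 1 to 3 (4), summits near a start 100% (87.5%), E-boxes 0.0% to 60.0% (25%), guidance genes with a peak 6 to 11 (13), ranked peaks passing 0.397% to 2.44% (2.77%) and their median percentile 50.6 to 54.1 (53.2). The lowest counts came without replicate 1. Keeping the strongest 50% of peaks left 1 peak, 1 member, an E-box share of 0.0%, 100% near a start, 4 partners (8) and 8 guidance genes. Counting summits inside genes only gave 4 peaks, 100% near a start, 3 partners and 8 guidance genes. The pooled list gave 100% near a start. By nearest start alone the median percentile was 58.4. With peaks within 250 bp of tRNA genes left out, an alternative chosen after seeing the data, 5 peaks and all 4 members remained. The E-box share was 12.5% with a window of 25 bp, 50% with 100 bp or inside genes only, and 40% without the tRNA peaks. Peaks found by both replicates numbered 1 with 50% of the peak covered or with summits within 100 bp (2). No paired analysis was possible because the study has 1 group. Depth limits could not be computed without read counts.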
